A study of Mus musculus with 10 samples.

Results

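Oxidative phosphorylation is carried out by the respiratory chain and ATP synthase, and 100 genes for their subunits were followed here in tumour-infiltrating mouse CD8 T cells with and without the transcription factor NFAT5. The members are the protein-coding genes in GENCODE M21 whose symbols mark subunits of complex I (Nduf genes of the a, b, c, s and v series), complex II (Sdha to Sdhd), complex III (Uqcr), complex IV (Cox4 to Cox8), cytochrome c (Cycs), ATP synthase (Atp5) or the mitochondrially encoded subunits (mt-Nd, mt-Co, mt-Cytb and mt-Atp). They are 100 of the 54408 genes counted. Complex I holds 45 of them, complex II 4, complex III 9, complex IV 21, ATP synthase (complex V) 20 and cytochrome c 1. The nuclear genome encodes 87 and the mitochondrial genome 13. The symbols decide membership, so Cyc1, a catalytic subunit of complex III, is not among them, Atp5s, which is not a core subunit, is, and Ndufa4 is counted under complex I although it is now regarded as a complex IV subunit.

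All cells were P14 CD8 T cells of C57BL/6 background, whose transgenic receptor sees the gp33 peptide, and both groups were NFAT5flox/flox. The WT group was CD4-Cre-/- and the NFAT5 KO group CD4-Cre+/-, a Cre driven by the Cd4 promoter and active in developing T cells. After 48 h of activation in culture, the cells were given to mice with subcutaneous B16-gp33 melanoma, a mouse tumour line that makes gp33. The transferred dose was 5 × 10⁶ cells for every library. The CD8 cells were sorted from the tumours on day 7 after transfer for RNA sequencing. Each group has 5 libraries. Titles of 2 WT and 3 NFAT5 KO libraries begin with 678 and those of the other 3 WT and 2 NFAT5 KO libraries with 679, a label prefix whose meaning the labels do not give. The labels do not say that each library comes from its own mouse, nor whether WT and NFAT5 KO cells shared a host, so p-values measure the spread between libraries, part of which may be technical.

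Complexes I to IV pass electrons from NADH and succinate to oxygen and, apart from complex II, pump protons across the inner mitochondrial membrane. ATP synthase lets the protons flow back and makes ATP. Mitochondrial DNA encodes a few core subunits, transcribed inside the organelle as long precursors, while the nucleus encodes the rest, so a working complex needs both genomes. Activated T cells raise respiration as well as glycolysis, and reduced mitochondrial function has been described in exhausted T cells in tumours.

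Read counts of several mitochondrially encoded members are shared with near-identical copies in the nuclear genome, and the sequences show how little there is to tell them apart. A block of mitochondrial sequence lies on chromosome 1, and GENCODE annotates its parts as pseudogenes. The mt-Co3 transcript, for a core subunit of complex IV, matched the pseudogene Gm28437 (GRCm38 chr1:24613189-24613971, minus strand) at 783 of 783 aligned bases. The mt-Atp6 transcript, for the membrane subunit of ATP synthase through which protons pass, matched Gm10925 (chr1:24613974-24614651, minus strand) at 678 of 678. The mt-Co2 transcript, for the subunit that takes electrons from cytochrome c, matched Gm28661 (chr1:24614885-24615565, minus strand) at 681 of 681. The first 60 bases of these 3 transcripts are given below, and each stands letter for letter at the start of its pseudogene. For mt-Nd3, a membrane subunit of complex I, the pseudogene Gm28438 (chr1:24612775-24613119, minus strand) matched at 344 of 345 bases, and the single difference is the substitution T3C, counted from 1 at the 5′ end of the mt-Nd3 transcript, with the differing base in capitals.
mt-Co3 and Gm28437: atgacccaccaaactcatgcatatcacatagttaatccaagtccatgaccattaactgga
mt-Atp6 and Gm10925: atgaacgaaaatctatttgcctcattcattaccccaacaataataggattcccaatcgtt
mt-Co2 and Gm28661: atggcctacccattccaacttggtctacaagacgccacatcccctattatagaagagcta
mt-Nd3: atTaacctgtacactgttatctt
Gm28438: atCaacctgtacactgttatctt

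Salmon splits reads that fit several transcripts equally well, so these letters bear on the counts. Of the reads assigned to mt-Atp6 and its pseudogene together, 87.8% went to the pseudogene. The share was 87.6% for mt-Co3, 39.8% for mt-Co2, 29.6% for mt-Nd3, 28.6% for mt-Co1, 6.93% for mt-Nd4l and 2.94% for mt-Nd4. Levels of mt-Atp6 and mt-Co3 taken from the gene alone are therefore far below those of the summed copies, and whether any of these reads came from the nuclear copies was not tested. Among nuclear members, pseudogenes took 83.2% of the summed reads for Atp5g2, 64.1% for Ndufb4, 33.7% for Cycs, 24.1% for Atp5l and 19.8% for Cox7c. Differences between genotypes are given for the genes alone, and for the members with such shares the summed values follow.

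A short motif search was made in RefSeq promoter windows (GRCm38.p6) of the nuclear members, because these genes are known targets of nuclear respiratory factors. The 250 bases before the start site were available for 68 of 86 symbols, in 73 windows. The NRF1 motif, searched as GCGC followed by A, any base and GCGC on either strand, was present in 14 windows (19.18%), against 1228 of 32851 windows of all genes (3.74%). The ETS motif CCGGAAG, of the kind bound by NRF2 (GABPA), was present in 12 windows (16.44%), against 6.91% of all windows. The 2 motifs cannot overlap in full. Atp5k, Atp5c1 and Ndufa8 are shown because they are among the members with the smallest p-values between genotypes. Sdhd is shown as an example of a window with both motifs, which Cox6a1 and Atp5h also had. The stretches lie on the minus strand at chr5:108434400-108434489, chr2:10080433-10080489, chr2:36049339-36049408 and chr9:50603879-50603968, with the NRF1 match in capitals. In the Sdhd stretch the ETS letters stand in lower case, on the reverse strand.
Atp5k: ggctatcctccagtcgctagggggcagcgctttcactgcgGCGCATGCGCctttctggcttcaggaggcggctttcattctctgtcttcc
Atp5c1: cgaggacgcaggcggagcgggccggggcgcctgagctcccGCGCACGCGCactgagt
Ndufa8: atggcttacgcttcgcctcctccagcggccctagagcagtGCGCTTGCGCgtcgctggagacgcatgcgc
Sdhd: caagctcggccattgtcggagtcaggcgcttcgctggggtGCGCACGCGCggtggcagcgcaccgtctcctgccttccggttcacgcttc
The match in Atp5c1 starts 17 bases before the RefSeq start site, and that in Atp5k 50 bases before it. In GENCODE M21 the Atp5c1 gene begins further upstream, at 10080510, so its stretch lies within that gene. The Atp5k and Ndufa8 stretches each span the GENCODE gene start, at 108434448 and 36049406. Cox5b, Cox7a2 and Cycs had a window with neither motif. A match is a string of letters, not a measured binding site, and no binding was measured in these cells.

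Depth was 22444310 to 32001285 estimated counts per library. CD8 T cell markers (8 of 8 tested) summed to 8486 to 9566 CPM (counts scaled by depth and TMM factors) in WT and 9345 to 9890 CPM in NFAT5 KO libraries, so the labelled cell type was found, and CD4 T cell and neutrophil markers were at or near 0. Of the 8 CD8 markers 2 were higher in NFAT5 KO, Trac and Cd2, at log2 fold changes of 0.50 and 0.46 (edgeR adjusted p = 0.00936 and 0.0204). The 4 B cell markers summed to between 5.15 and 14.4 CPM across libraries. Only 1 of them, Cd79b, could be tested, at -0.60 (edgeR adjusted p = 0.169). The 10 macrophage markers summed to 70.9 to 149 CPM in WT against 36.4 to 80.9 CPM in NFAT5 KO, and 1 of the 9 tested was lower past the threshold. Lyz2 and Cd68 had the highest WT means of the 10, at 48.4 and 22.5 CPM. Itgam went the other way, at 0.27 (edgeR adjusted p = 0.743). Melanoma markers summed to at most 4.27 CPM in any library. The 12 proliferation markers summed to 1980 to 3270 CPM in WT against 507 to 1036 CPM in NFAT5 KO, and 12 of 12 were lower. Nfat5, the targeted gene, had a mean of 15.4 ± 3.81 CPM over WT and of 14.99 ± 6.57 CPM over NFAT5 KO libraries (SD, n = 5 each), a log2 fold change of -0.04 (SE 0.27, edgeR adjusted p = 0.957), and counts summed over the gene do not show whether the floxed part is gone.

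The subunit genes were among the more abundant RNAs of these cells. Levels between genes are compared in TPM, an abundance per effective length. The 80 nuclear members that could be tested had a median of 295 TPM over all libraries, against 12.6 TPM for all genes tested, and 74 of the 80 lay above 100 TPM. Atp5b, the catalytic beta subunit of ATP synthase, was the highest nuclear member at 2398 TPM. Next came 2 small subunits of complex IV, Cox8a at 1263 TPM and Cox6b1 at 1041 TPM. The highest nuclear members of the other complexes were Uqcrq at 562 TPM in complex III, Ndufa3 at 530 TPM in complex I and Sdhb at 342 TPM in complex II, and Cycs stood at 51.8 TPM. Among mitochondrial genes mt-Co1 stood at 1278 TPM, mt-Co2 at 1150 TPM, mt-Nd1 at 976 TPM and mt-Cytb at 899 TPM. The value of 15228 TPM for mt-Atp8 rests on an effective length of 26 bases and is not comparable with the others.

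**Figure D1:**
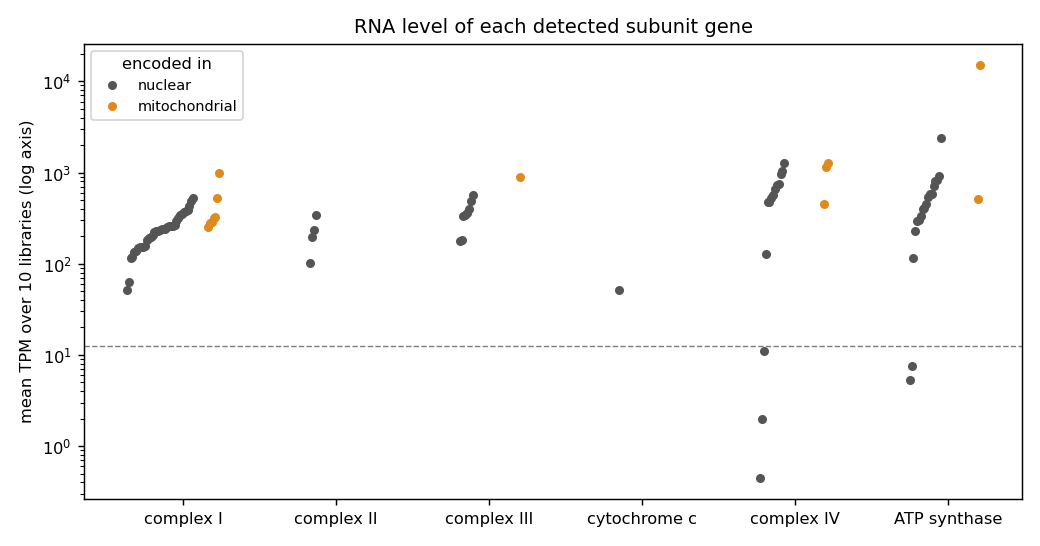
Mean TPM over the 10 libraries (log axis) of each member with any count, by complex; grey points are nuclear-encoded and orange points mitochondrially encoded, and the dashed line is the median of all tested genes, 12.6 TPM. Most members lie above 100 TPM, Atp5b is the highest nuclear gene, and the point at the top right is mt-Atp8, whose effective length is 26 bases.

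Where a subunit has tissue-restricted forms, the T cells used the widely expressed form. Cox4i2, Cox7b2, Cox8b, Cox8c and Ndufa4l2 had no count in any library, where a floor of 3 counts corresponds to 0.0939 to 0.134 CPM. Cox6a2, the heart and muscle form, stood between 0 and 0.627 CPM and Cox7a1, also a muscle form, between 0 and 1.05 CPM. These 7 genes were too low to test. Cox6a1 made up 99.8% to 100% of Cox6a TPM, and Cox7a2 73.8% to 83.2% of the TPM of Cox7a1, Cox7a2 and Cox7a2l. Of the 3 genes for the same subunit c of the ATP synthase rotor, Atp5g3 gave 51.6% to 59.6% of TPM, Atp5g1 33.3% to 41.3% and Atp5g2 6.22% to 9.58%. The Atp5g2 share does not count the reads given to its pseudogene Gm10175.

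Between genotypes, log2 fold changes (NFAT5 KO over WT) of the nuclear-encoded members were small and mostly below 0, and those of the mitochondrially encoded members were mostly above 0. Of the 93 members tested, 1 was lower in NFAT5 KO past the adjusted threshold of 0.05 (Cox5b) and 0 were higher. Across all 13081 genes tested, 9.01% were called, 5.63% lower and 3.38% higher, so the share of called members was not above the background. At an unadjusted p under 0.05, 15 of 93 were lower, where the background is 12.1%, and 1 was higher, where it is 11.1%. Members called lower numbered 6 with DESeq2's Wald test (background 8.27%), 5 in edgeR scaled by library size alone (background 6.57%) and 3 in edgeR with a filter of 5 CPM in 5 libraries (background 8.06%), and 0 were higher in each. The log2 fold change was below 0 for 69 of the 80 nuclear members and for 4 of the 13 mitochondrial members, against 48.2% of all genes. The median log2 fold change was -0.15 for nuclear members, 0.12 for mitochondrial members and 0.02 for all genes. The 5 WT and 5 NFAT5 KO values did not overlap for 2 members, both lower in NFAT5 KO (Cox5b and Atp5c1), where 6.41% of all genes did so in that direction, and 0 were higher, where 3.92% of all genes were.

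By complex, the nuclear medians were -0.16 for complex I (34 of 37 tested members below 0), -0.11 for complex II, -0.07 for complex III, -0.20 for complex IV and -0.17 for ATP synthase, and Cycs was at -0.14. The mitochondrial medians were 0.15 for the 7 complex I genes, 0.23 for the 3 complex IV genes and 0.03 for the 2 ATP synthase genes, and mt-Cytb of complex III was at -0.01. The spread between libraries was of the size of these medians. The median SD of log2 CPM was 0.15 in WT and 0.21 in NFAT5 KO for nuclear members, and 0.30 and 0.52 for mitochondrial members.

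**Figure D2:**
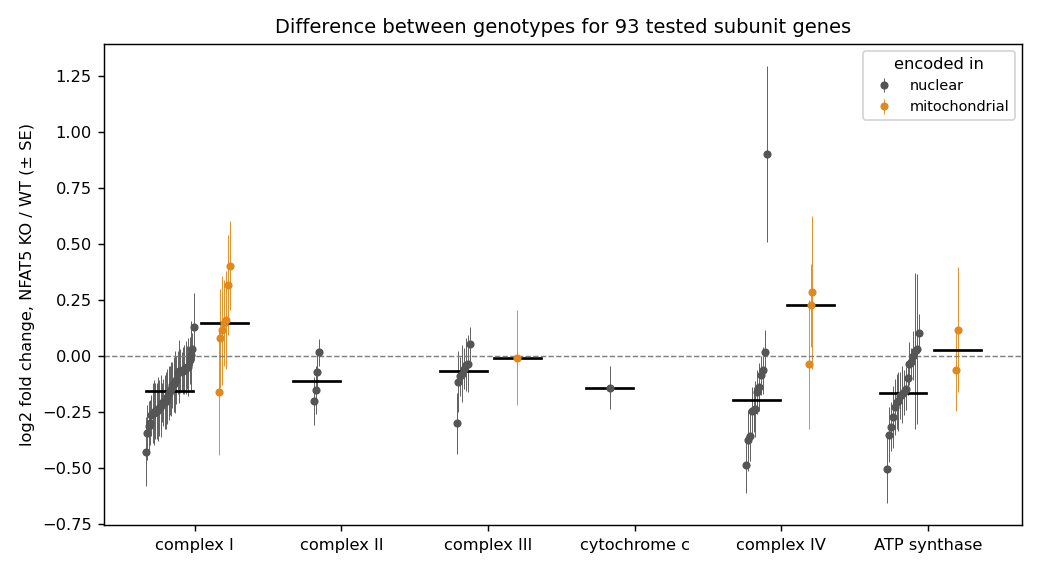
Log2 fold change of NFAT5 KO over WT with its standard error (y axis) for the 93 tested members, by complex; grey points are nuclear-encoded, orange points mitochondrially encoded, black bars are group medians and the dashed line is 0. Nuclear members lie mostly below 0, 69 of 80, while 9 of 13 mitochondrial members lie above it, with longer error bars.

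Library by library, values are given in label order, which is 678_2, 678_4, 679_3, 679_4, 679_5 for WT and 678_3, 678_5, 678_6, 679_2, 679_6 for NFAT5 KO. Summed over members, the nuclear genes gave 16798, 15357, 14597, 17145 and 15318 CPM in the WT group. The NFAT5 KO sums were 15895, 12329, 14754, 13931 and 15838 CPM. The groups overlapped, with NFAT5 KO 678_5 and 679_2 below every WT library and 678_3, 678_6 and 679_6 within the WT range. The 13 mitochondrial genes summed to 7047, 5979, 5782, 8312 and 4966 CPM in WT. In NFAT5 KO they summed to 7620, 3517, 10679, 6231 and 8482 CPM, so the lowest and the highest of the 10 libraries, 678_5 and 678_6, were both NFAT5 KO. For the genes alone, the mitochondrial sum stood at 0.324 to 0.485 of the nuclear sum in WT and at 0.285 to 0.724 of it in NFAT5 KO. The 2 sums lay closer once matching pseudogenes were added. WT libraries then averaged 12008 CPM for mitochondrial and 16253 CPM for nuclear members. The NFAT5 KO averages were 12975 CPM for mitochondrial and 14914 CPM for nuclear members. As a share of all counts the 13 genes held 0.351% to 1.05%, or 0.637% to 1.81% with their pseudogenes.

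**Figure D3:**
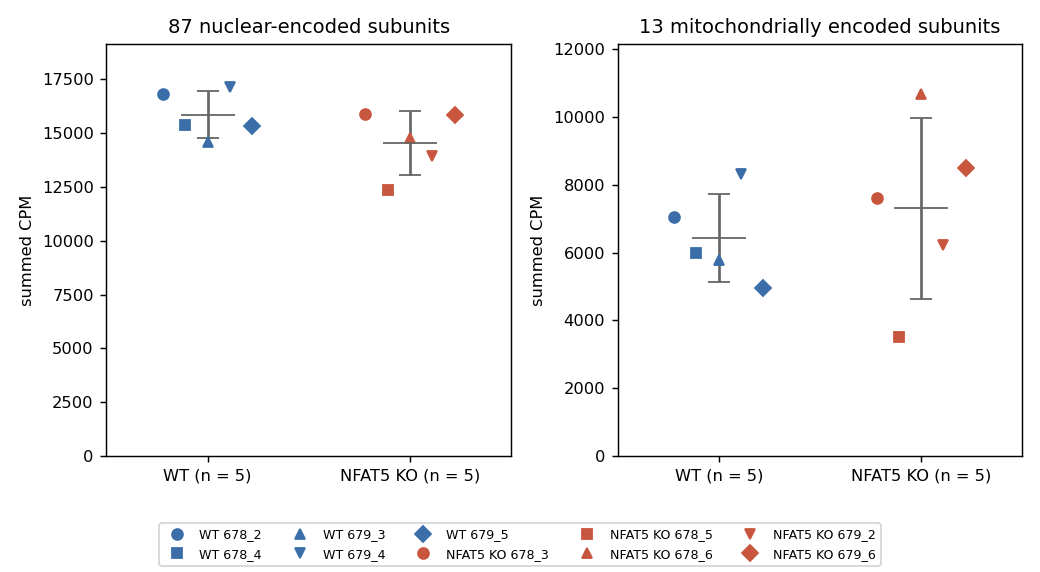
Summed CPM of the 87 nuclear-encoded (left) and 13 mitochondrially encoded members (right) in each library, with the group mean and SD (grey) and 1 marker per library. The nuclear sums span 12329 to 17145 CPM with overlapping groups, and the NFAT5 KO mitochondrial sums spread from 3517 to 10679 CPM, wider than the WT sums of 4966 to 8312 CPM.

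Single libraries carried much of this spread. NFAT5 KO 678_5 had the lowest value of all 10 libraries for 57 of the 80 tested nuclear members and 12 of the 13 mitochondrial ones, against 20.2% of all genes tested. This was not particular to the members. Genes for cytosolic ribosomal proteins were also lowest in 678_5, with a mean log2 CPM of 8.18 against 8.56 to 8.83 in the other libraries. Mitochondrial rRNA was lowest in 678_5 too, at 0.120% of counts, and highest in 678_6, at 0.311%. NFAT5 KO 678_6 was highest for 11 of 13 mitochondrial members, against 9.14% of all genes, and WT 679_4 was highest for 36 of 80 nuclear members, against 15.2%. Without 678_5 the nuclear median was -0.10 and the mitochondrial median 0.27, and without 678_6 they were -0.18 and -0.04. The nuclear median stayed between -0.21 and -0.10 in the 10 fits that each left out 1 library. The mitochondrial median ran from -0.04 to 0.27 in the same fits, and it was also just below 0, at -0.001, without WT 679_5.

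Other measures moved with the nuclear members. With the mean of the macrophage markers as a covariate, the nuclear median was 0.02 and the mitochondrial median 0.23. In that fit the genes called among all tested fell from 1179 to 42, and the members below 0 from 73 to 36 of 93. The macrophage markers as a sum, though not Itgam, were themselves lower in most NFAT5 KO libraries. This covariate therefore overlaps with genotype, and the fit cannot separate the 2. A call lost with the macrophage covariate, for any gene below, therefore says little about that gene. Of the nuclear members, 69 of 80 had an effective length under 1000 bases. Their median was -0.16, and that of all 3344 genes that short was -0.09, with 60.9% of them below 0. At 1000 bases or more the medians were -0.07 for 11 nuclear members and 0.06 for 9737 genes. Genes for cytosolic ribosomal proteins, which are also short and abundant, had 0 of 76 called by edgeR and a median of -0.06. Of the 76, 53 (69.7%) were below 0. At an unadjusted p under 0.05, 1 was lower, where 12.1% of all genes were. DESeq2 called 1 lower, where it called 8.27% of all genes lower. Proliferation markers were lower in NFAT5 KO (above), and their part in the result was not tested. In bulk RNA, fewer cells of a type and less RNA per cell cannot be told apart.

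Cox5b was the called member. It encodes a nuclear subunit of complex IV, the cytochrome c oxidase, that sits on the matrix side and binds zinc (ENSMUSG00000061518, GRCm38 chromosome 1, 36691449 to 36693681). Its WT values, in label order, were 167, 144, 144, 195 and 149.7 CPM. Its NFAT5 KO values were 135, 87.5, 109.99, 109 and 129.6 CPM. Every NFAT5 KO library was below every WT library, though the 135 CPM of 678_3 lay close to the lowest WT value. The log2 fold change was -0.49 (SE 0.13, edgeR adjusted p = 0.0327). The call was lost in 4 of 10 fits with 1 library left out: the edgeR adjusted p was 0.0814 without WT 678_2, 0.0705 without NFAT5 KO 678_6, 0.0708 without NFAT5 KO 679_2 and 0.0655 without WT 679_4. With the label prefix as a block the log2 fold change was -0.47 (adjusted p = 0.0556), and within prefix 678 and prefix 679 alone it was -0.49 and -0.46 (adjusted p = 0.446 and 0.277). With the macrophage covariate it was -0.21 (adjusted p = 0.761). Within prefix 678 alone 0 of 13747 genes were called, and within prefix 679 alone 325 of 13966. A call lost within a prefix, here or below, therefore says little about the gene.

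The other tested nuclear subunits of complex IV did not pass, and their log2 fold changes were below 0 apart from those of Cox7b and Cox6b2. Cox7a2, the widely expressed form of a small subunit, had WT values of 176, 148, 136, 165 and 166 CPM. Its NFAT5 KO values were 132, 102, 122, 110.3 and 152 CPM. All but 1 NFAT5 KO library (679_6) lay below the WT range, and the log2 fold change was -0.36 (SE 0.12, edgeR adjusted p = 0.0753). Cox7c was at -0.38 (adjusted p = 0.112), the same when summed with its pseudogenes, Cox5a at -0.25 (0.178) and Cox4i1, the largest nuclear-encoded subunit, at -0.24 (0.161). Cox6c, Cox8a and Cox6b1 followed at -0.24, -0.16 and -0.14, then Cox6a1 at -0.09 and Cox7a2l, known for its place in respiratory supercomplexes, at -0.07. Cox7b stood at 0.02.

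Cox6b2, known as a testis form of Cox6b, had the highest log2 fold change of the 93 tested members, at a very low level. WT values were 2.67, 1.80, 1.81, 0.910 and 2.10 CPM, and NFAT5 KO values 5.21, 4.39, 2.10, 3.28 and 2.39 CPM. Only 678_6, at 2.10 CPM, and 679_6, at 2.39 CPM, lay within the WT range, and the log2 fold change was 0.90 (SE 0.39, edgeR adjusted p = 0.189). As a share of the TPM of Cox6b1 and Cox6b2, it made up 0.279% to 0.862% in WT and 0.865% to 2.37% in NFAT5 KO, so Cox6b1 remained nearly the sole form in every library.

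ATP synthase held the member with the lowest log2 fold change, Atp5k, subunit e of the membrane part. WT values were 51.1, 41.7, 35.5, 52.8 and 43.2 CPM. NFAT5 KO values were 35.1, 25.98, 34.2, 25.7 and 37.0 CPM. Only 679_6 among the NFAT5 KO libraries reached into the WT range, whose lowest value was 679_3, and the log2 fold change was -0.51 (SE 0.15, edgeR adjusted p = 0.0590). Without WT 679_3 it passed (adjusted p = 0.0424). Atp5c1, the gamma subunit that turns inside the catalytic head, had 471, 367, 394, 474 and 368 CPM in WT against 356, 239.7, 329.5, 340.2 and 361 CPM in NFAT5 KO. The groups did not overlap, by a gap of 361 to 367 CPM, and the log2 fold change was -0.35 (SE 0.12, edgeR adjusted p = 0.0941).

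Atp5b, the beta subunit of the catalytic head of ATP synthase, averaged 2181 ± 74.6 CPM in WT against 2137 ± 128 CPM in NFAT5 KO (SD, n = 5 each), a log2 fold change of -0.03 (SE 0.06). Atp5a1, the alpha subunit, was at -0.10 (SE 0.08). Besides Atp5c1, the central stalk holds Atp5d, the delta subunit, at 0.10 (SE 0.09), and Atp5e, the epsilon subunit, at -0.23 (SE 0.13). Of the membrane and stalk subunits, Atp5j2 was at -0.32 (adjusted p = 0.102), Atp5j at -0.28 (0.261), Atp5l at -0.20 (0.389), Atp5o at -0.18 (0.336), Atp5h at -0.16 (0.368) and Atp5f1 at -0.15 (0.394). The 3 subunit c genes were at -0.17 for Atp5g3, 0.001 for Atp5g1 and -0.20 for Atp5g2. Summed with their pseudogenes, Atp5g2 was at -0.15, Atp5g1 at -0.01 and Atp5l at -0.22. A second protein-coding gene entry under the symbol Atp5o, also counted as a member, averaged 1.84 CPM in WT against 1.87 CPM in NFAT5 KO.

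**Figure D4:**
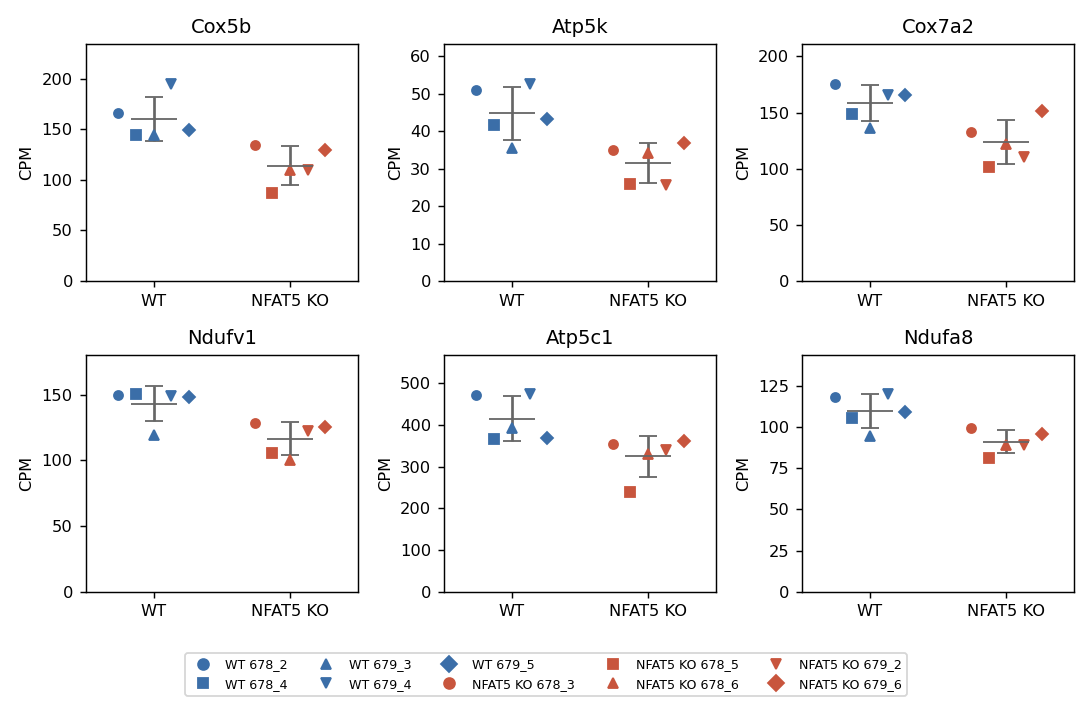
CPM of Cox5b, Atp5k, Cox7a2, Ndufv1, Atp5c1 and Ndufa8, the 6 members with the smallest p-values, in each library, with the group mean and SD (grey) and 1 marker per library. Groups do not overlap for Cox5b and Atp5c1 and overlap by at least 1 library for the other 4.

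In complex I, where NADH is oxidised, none of 37 tested nuclear members passed in edgeR. At an unadjusted p under 0.05, 6 of the 37 were lower, where 12.1% of all genes were. DESeq2's Wald test called 2 of them lower, Ndufv1 and Ndufa8, where it called 8.27% of all genes lower. Ndufv1, which carries the flavin that takes electrons from NADH, had 149.96, 150.3, 119, 149 and 148 CPM in WT against 128, 106, 100.2, 122 and 125 CPM in NFAT5 KO. Apart from WT 679_3, every WT library lay above every NFAT5 KO library, and the log2 fold change was -0.30 (SE 0.10, edgeR adjusted p = 0.0833). Without WT 679_3 it passed (adjusted p = 0.0385). Ndufa8, an accessory subunit, had 118, 106, 94.3, 119.9 and 109 CPM in WT against 99.4, 81.4, 89.2, 89.1 and 95.8 CPM in NFAT5 KO. Its ranges overlapped through WT 679_3, and the log2 fold change was -0.27 (SE 0.09, edgeR adjusted p = 0.0978).

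The other nuclear members of complex I ran from -0.43 for Ndufc1 (edgeR adjusted p = 0.108) to 0.13 for Ndufa6. The accessory subunits Ndufb8 and Ndufv3 were at -0.34 and -0.32. The core subunits that carry or surround the iron-sulfur chain did not lie together. Ndufs1, Ndufs3, Ndufs7 and Ndufv2 were at -0.05, -0.07, -0.05 and -0.07, but Ndufs8 was at -0.21 and Ndufv1 at -0.30. Some accessory subunits were as near 0, such as Ndufa1 at -0.02 and Ndufa7 at -0.06. Ndufa3, the most abundant in TPM, was at -0.13 (SE 0.12). Ndufa13 and Ndufb4 joined Ndufa6 above 0, at 0.03 and 0.003, and Ndufb4 was at -0.03 when summed with its pseudogenes.

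No subunit of complex II, which links the TCA cycle to the chain, passed the test. Sdha, the flavoprotein that oxidises succinate, averaged 455 ± 16.4 CPM in WT against 461 ± 11.4 CPM in NFAT5 KO (SD, n = 5 each), a log2 fold change of 0.02 (SE 0.06). Sdhb, the iron-sulfur subunit, was at -0.15 (SE 0.11, edgeR adjusted p = 0.429), and the membrane anchors Sdhc and Sdhd at -0.07 and -0.20 (SE 0.09 and 0.11). For Sdhd, NFAT5 KO 679_2 was the lowest library at 134 CPM, against 161 to 199.5 CPM in the other NFAT5 KO and 189 to 224 CPM in the WT libraries.

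In complex III, Uqcr10, a small subunit, had 134.6, 99.9, 103, 138 and 124 CPM in WT against 105, 73.0, 96.4, 92.2 and 119.3 CPM in NFAT5 KO. The groups overlapped, and the log2 fold change was -0.30 (SE 0.14, edgeR adjusted p = 0.207). The core proteins Uqcrc2 and Uqcrc1 were at -0.09 and 0.05, the Rieske iron-sulfur protein Uqcrfs1 at -0.04, and Uqcrq at -0.08. Cycs, the mobile carrier between complexes III and IV, averaged 156 ± 10.6 CPM in WT against 141 ± 18.3 CPM in NFAT5 KO (SD, n = 5 each), at -0.14 (SE 0.10), or -0.15 with its pseudogenes.

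Of the 13 mitochondrially encoded members, none passed in edgeR, at an unadjusted p under 0.05 or in DESeq2's Wald test. The largest difference was in mt-Nd1, a membrane subunit of complex I near the quinone site. WT values were 798, 848, 674, 885 and 636 CPM, and NFAT5 KO values 1076, 560.1, 1365, 845 and 1233 CPM. Of the NFAT5 KO libraries 3 lay above the WT range, 679_2 within it and 678_5 below it, and the log2 fold change was 0.40 (SE 0.20, edgeR adjusted p = 0.248). Without 678_5 it was 0.54 (adjusted p = 0.0375), the only fit of those run in which a mitochondrial member passed. The remaining complex I genes were at 0.32 for mt-Nd2, 0.16 for mt-Nd4, 0.15 for mt-Nd5, 0.11 for mt-Nd4l, 0.08 for mt-Nd6, the gene on the other DNA strand, and -0.16 for mt-Nd3 (SE 0.19 to 0.29).

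The spread was widest for mt-Co1, the catalytic subunit of complex IV. WT values were 2206, 1595, 1679, 2499 and 1362 CPM, and NFAT5 KO values 2702, 656, 3611, 1693 and 2706 CPM. The NFAT5 KO libraries differed among themselves by 5.50 times and the WT libraries by 1.83 times, and the log2 fold change was 0.28 (SE 0.34). Its partners mt-Co2 and mt-Co3 were at 0.23 and -0.04 (SE 0.18 and 0.29). mt-Cytb, the catalytic core of complex III, was at -0.01 (SE 0.21), mt-Atp6 at 0.12 (SE 0.28) and mt-Atp8 at -0.06 (SE 0.19). Summed with their pseudogenes, mt-Co1, mt-Co2, mt-Co3, mt-Atp6 and mt-Nd3 were at 0.24, 0.17, -0.001, 0.001 and -0.22, so the positive value of mt-Atp6 and the negative one of mt-Co3 both went to about 0. For mt-Nd4 and mt-Nd4l the summed values were 0.16 and 0.11. In that fit Cox5b was again the called member.

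**Figure D5:**
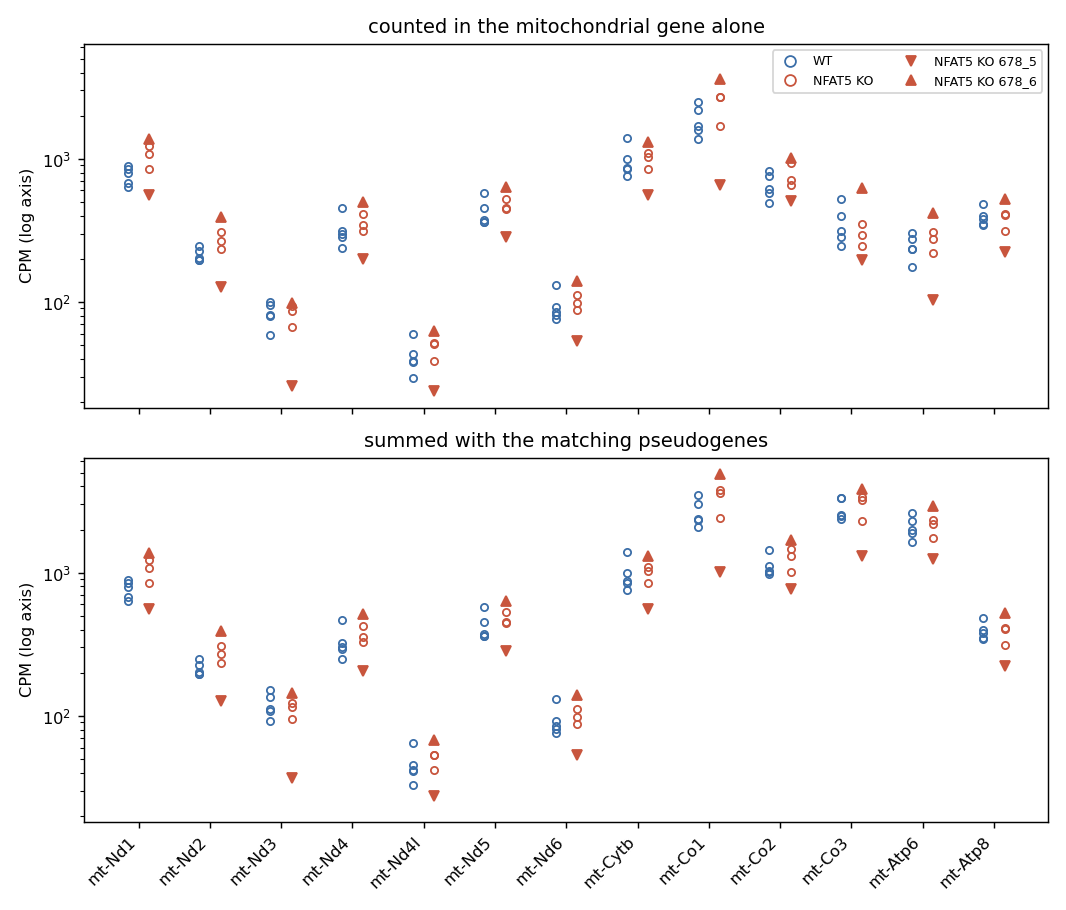
CPM (log axis) of the 13 mitochondrially encoded members in each library, for the gene alone (top) and summed with its matching pseudogenes (bottom); blue is WT, red NFAT5 KO, and filled triangles mark NFAT5 KO 678_5 (down) and 678_6 (up). The 2 marked libraries bound most genes from below and above, and mt-Co3 and mt-Atp6 stand several times higher in the lower panel.

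Other genes of mitochondrial respiration were read against the 5.63% of all genes called lower. Of 44 assembly factors tested, 1 was lower, Ndufaf7, a methyltransferase needed for complex I, at -0.42 (SE 0.12, edgeR adjusted p = 0.0463), with a list median of -0.11. With 1 library left out, Ndufaf7 passed only without WT 678_4 or NFAT5 KO 678_5 (adjusted p = 0.0267 and 0.0409), and it reached 0.116 without WT 678_2. It also lost the call with the label prefix as a block (adjusted p = 0.0773), without the low-count filter (0.0770), with the length offset (0.0768), with the macrophage and melanoma covariates (0.509 and 0.110) and within each label prefix alone. Of 78 mitochondrial ribosomal proteins 1 was lower, Mrpl18, at -0.60 (SE 0.10, adjusted p = 0.00351), with a median of -0.13 and 65 below 0. Of 20 import, carrier and channel genes 2 were lower. Slc25a4, the ADP/ATP carrier that exchanges the product of ATP synthase for ADP, was at -0.45 (SE 0.09, adjusted p = 0.00951), and Vdac3, an outer membrane channel, at -0.37 (SE 0.09, adjusted p = 0.0171). Mrpl18, Slc25a4 and Vdac3 passed in all 10 left-out fits and lost the call with the macrophage covariate (adjusted p = 0.239, 0.440 and 0.597) and within each label prefix alone. Within prefix 678 no gene of any kind was called.

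Of 8 other genes that feed or belong to the chain, 2 were lower. Etfb, a subunit of the flavoprotein that brings electrons from fatty acid oxidation, was at -0.55 (SE 0.13, edgeR adjusted p = 0.0180), and it lost the call without WT 678_2 (0.0546), with the macrophage covariate (-0.24, adjusted p = 0.673) and within each label prefix alone. Gpd2, the mitochondrial glycerol phosphate dehydrogenase, was at -0.45 (SE 0.12, adjusted p = 0.0350), and passed without NFAT5 KO 678_3, NFAT5 KO 678_5, WT 679_3 or WT 679_5 but not without any of the other 6 libraries, where the highest adjusted p was 0.0789, without WT 678_2. It also lost the call with the macrophage covariate (adjusted p = 0.238), with the length offset (0.0535) and within each label prefix alone. Of 17 genes of the TCA cycle and pyruvate dehydrogenase none passed, with a median of -0.04. The smallest p there was for Fh1, fumarase, at -0.30 (adjusted p = 0.0603). At an unadjusted p under 0.05, 1 of the 17 was lower and 0 higher, where 12.1% and 11.1% of all genes were. With DESeq2's adjusted p, 1 was lower and 0 higher, where 8.27% of all genes were lower.

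Of 15 genes tested that maintain and express mitochondrial DNA, none passed in edgeR, and the median was 0.09. At an unadjusted p under 0.05, 2 were higher and 3 lower, where 11.1% and 12.1% of all genes were. DESeq2's Wald test called 1 lower and 1 higher. Of all 13081 genes it called 1893, of which 1082 were lower. Lrpprc, which stabilises mitochondrial mRNAs, had the smallest p, at 0.40 (SE 0.13, edgeR adjusted p = 0.0886). Of 8 regulators of mitochondrial biogenesis tested 1 was higher, where 3.38% of all genes were. Myc, known among many roles to raise mitochondrial genes, averaged 229.6 ± 52.2 CPM in WT against 357 ± 70.6 CPM in NFAT5 KO (SD, n = 5 each), at 0.64 (SE 0.16, adjusted p = 0.0312). Myc kept its call in 5 of 10 left-out fits, and lost it without WT 678_2, NFAT5 KO 678_6, NFAT5 KO 679_2, WT 679_3 or WT 679_4 (adjusted p = 0.0789, 0.0779, 0.0837, 0.0746 and 0.0637). With the macrophage covariate it was at 0.43 (adjusted p = 0.623), and within each label prefix alone it did not pass.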

How the data were processed

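RNA was measured in 10 libraries, 5 WT and 5 NFAT5 KO. The authors deposited a Salmon table per library with an estimated count (not normalized) and a TPM value for each transcript, per the file headers, along with its length and effective length. Per the submitters' processing notes, Salmon 0.14.1 was used with GRCm38.p6 (mm10). For annotation and strandedness, nothing is given in the sources used here. Without strand, overlapping genes cannot be told apart.

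Of 140919 transcripts, 140045 (99.38%) matched GENCODE M21, and the others held 0.191% to 0.228% of counts. These estimates were added up by gene and rounded to whole counts. The edgeR 4.0.16 quasi-likelihood test (robust, TMM, filterByExpr, no covariate; R 4.3.3) was fitted to 13081 genes, NFAT5 KO minus WT, with Benjamini-Hochberg adjustment over all of them at 0.05. SE is the absolute log2 fold change over the square root of F. CPM and SD are per library and per group. TPM served to compare genes. Pseudogenes matched a member at 95% identity or more over at least 100 bases (blastn 2.17.0). The fit was run on simulated counts with known changes larger than those of any member, so that run does not bear on differences of their size. Each of 45 pairs of libraries differed by more than sampling noise. Counting floors cover counting error only.

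Named genes were called members, mitochondrial members, the highest and the lowest-p members of each complex, isoform pairs, Nfat5, and up to 4 called or the lowest-p gene of each list. Values of further members were added after they were seen. The members and lists were chosen with earlier results of these data known. Alternatives were other scalings and filters, the label prefix as a block or alone, marker covariates, DESeq2 1.42.0, limma-voom 3.58.1, a length offset, pseudogene sums and each library left out.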

Additional observations from a re-analysis of the deposited data

Results flagged for a closer look

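Within groups of 5, a library was looked for whose gap to the nearest of the others exceeds Dixon's critical value, which chance alone gives in about 1 in 20 groups. Of 76 groups examined, over the named members and the nuclear and mitochondrial sums, 2 had one. In Ndufv1, WT 679_3 stood at 118.87 CPM and the other 4 WT libraries at 147.84 to 150.29 CPM, a gap of 0.922 of the range. In Atp5c1, NFAT5 KO 678_5 stood at 239.73 CPM and the other 4 NFAT5 KO libraries at 329.51 to 360.80 CPM, a gap of 0.742 of the range.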

How the results depend on the processing

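The number of members called lower in NFAT5 KO, 1 as reported, was 5 with library size alone (Atp5k, Cox5b, Cox7a2, Ndufa8 and Ndufv1), 3 with a filter of 5 CPM in 5 libraries (Atp5k, Cox5b and Cox7a2) and 6 with DESeq2's Wald test, which added Atp5c1 to the 5. It was 0 with the label prefix as a block, within prefix 678 alone, within prefix 679 alone and with the macrophage covariate. With 1 library left out it ran from 0 to 3, and the number called higher from 0 to 1 (mt-Nd1, without NFAT5 KO 678_5). The other settings gave 1 lower and 0 higher. The log2 fold change of Cox5b stayed below 0 in the 24 alternatives run, from -0.57 to -0.21. The nuclear median was below 0 in 23 of 24 and the mitochondrial median in 2 of 24, and the cause of the exceptions was not tested. Calls among all genes numbered 1893 with the Wald test, 976 with the block, 0 within prefix 678, 325 within prefix 679, 696 without WT 678_2 and 42 with the macrophage covariate. With 5 libraries of a prefix, fewer samples enter each fit. No paired analysis was possible because the groups share no replicate numbers.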
